A study of Sus scrofa with 8 samples.

Results

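Translation initiation and elongation factors were compared between the endometrium of pregnant Meishan gilts and that of pregnant Yorkshire gilts. The set was taken by name: every probeset whose gene symbol, in the array's annotation or in the study's own list of differing probesets, begins with EIF or EEF and a digit, or is EF1ALPHA, ETF1 or PABPC1. The rule found 92 of the 24123 probesets on the array, which carry 54 symbols, and no probeset named ETF1 was among them. A probeset is a group of short oligonucleotides that together report 1 transcript, and many of these genes have several. Of the 92, 78 were named by the array annotation and lay among the 23999 probesets tested, 11 were named by the study's list alone, and 3 were array control probesets for eukaryotic elongation factor 1 alpha. The 11 stand in that list because they differed between the breeds on these same arrays, so they are described without a test. Of the 78, 21 also stand in the study's list, 3 of them under another gene's name. They include probesets of EEF1B2, EEF1G, EF1ALPHA, EIF3D, EIF3E, EIF3H, EIF4A2 and EIF5A. Where such a probeset is described below as not called, this refers to the test used here and not to the study's.

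The Meishan group (M12) held 4 gilts bred to Meishan boars and the Yorkshire group (Y12) held 4 gilts bred to Yorkshire boars. All 8 females carried filamentous conceptuses on day 12 of gestation, the time of rapid conceptus elongation, and no non-pregnant gilts entered the comparison. Whole endometrium, not separated into cell types, was taken near where the uterine horns join, and its RNA was hybridized to the Affymetrix Porcine Genome array, 1 array for each gilt. The conceptuses were of the same breed as the gilt, so breed of the dam and breed of the litter cannot be told apart.

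Values are fluorescence signals that the array software scaled to the same trimmed mean on every array, and that were then brought to a common array median. Differences are given on the log2 scale as Meishan minus Yorkshire, tested with limma across all 23999 probesets, and a difference was called at a Benjamini-Hochberg adjusted p below 0.1. Over all probesets 218 were called, or 0.908%, with 97 toward Meishan (0.404%) and 121 toward Yorkshire (0.504%). The 18 hybridization spike-in probesets, which measure labelled transcripts added to the hybridization mix and not tissue RNA, averaged 11.78, 12.54, 12.02 and 11.99 on the log2 scale in Meishan gilts, against 11.23, 10.73, 11.23 and 11.12 in Yorkshire gilts (exact permutation test, two-sided, p = 0.0286, the smallest that 4 against 4 allows). The summed signal of 5 stromal markers lay between 56790 and 62460 in Meishan gilts and between 45690 and 54740 in Yorkshire gilts, that of 4 endothelial markers between 4233 and 4412 in Meishan gilts and between 4541 and 6056 in Yorkshire gilts, and that of 5 epithelial markers between 21590 and 35570 in Meishan gilts and between 23160 and 36230 in Yorkshire gilts. The stromal and endothelial sums did not overlap between the breeds, and no marker was called. VIM, DCN and LUM, the brightest stromal markers, had mean signals of at least 8192, where 80.5% of all probesets lay toward Meishan. Single markers within the lists disagreed. Of the stromal markers 4 lay toward Meishan and 1, COL3A1, toward Yorkshire (log2 difference -0.79). Of the endothelial markers 3 lay toward Yorkshire and 1, PECAM1, toward Meishan (0.11). Only VIM, DCN and CDH5 separated the breeds in these lists. The smooth muscle, leukocyte and steroid receptor sums overlapped, while PGR was higher in all Yorkshire gilts (-0.56). The part of these values in the results on translation factors was not tested.

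Translation begins when eIF2 brings the initiator tRNA to the small ribosomal subunit, eIF3 holds that subunit ready, and the cap complex of eIF4E, eIF4G and eIF4A delivers the mRNA. The start codon is then selected with the help of eIF1, eIF1A and eIF5B, and elongation proceeds with eEF1A delivering aminoacyl-tRNA, the eEF1B complex reloading eEF1A with GTP, and eEF2 moving the ribosome along. Cells slow the process mainly by phosphorylating eIF2 or by letting 4E-BP proteins sequester eIF4E. Secretory tissues such as the endometrium of early pregnancy, which releases histotroph into the uterine lumen, depend on this machinery. Many elongation factors, some eIF3 subunits and PABPC1 have mRNAs with a terminal oligopyrimidine tract, through which mTOR sets their translation.

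Of the 78 tested probesets, 40 had a log2 difference above 0 (51.7% of all probesets did) and 38 below, with a median of 0.02 and a range of -1.35 to 1.78. The median over all 23999 probesets was also 0.02. Both calls among the members were toward Meishan, which is 2.56% of the 78 beside 0.404% of all tested probesets in that direction, and both were probesets named EF1ALPHA, the gene of elongation factor eEF1A. At an unadjusted p below 0.05, 4 members lay toward Meishan (5.13%, against 7.79% of all probesets) and 6 toward Yorkshire (7.69%, against 6.96% of all). All 4 Meishan gilts exceeded all 4 Yorkshire gilts at 10 members, and the reverse held at 6, where 5.01% and 5.09% of all probesets separated in these directions. The plot of all members by role shows where the 2 calls stood in this spread. In whole tissue, fewer cells of a type and less RNA per cell cannot be told apart.

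**Figure D1:**
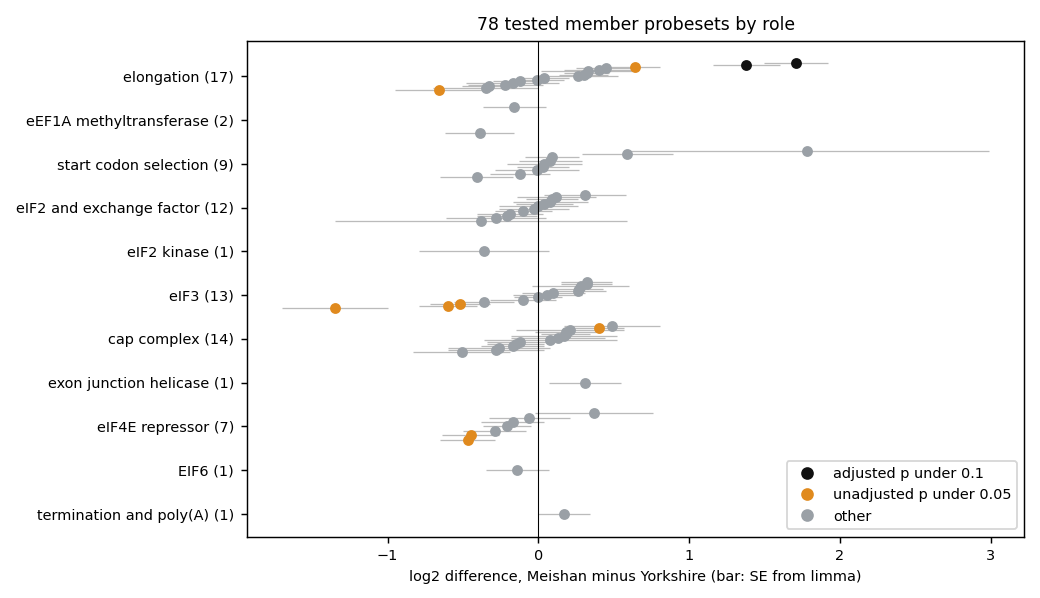
Log2 difference in signal, Meishan minus Yorkshire, for each of the 78 tested probesets (points, with a bar for the SE), arranged by the role of the factor. Differences ran from -1.35 to 1.78, and the 2 black points, both EF1ALPHA probesets among the elongation factors, are those called.

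The elongation factor eEF1A, the most abundant of these proteins, was represented by 10 tested probesets under the symbols EEF1A1 and EF1ALPHA, and they differed widely among themselves. The annotation gives the 2 symbols separate gene numbers, and the RefSeq pig gene table lists ef1alpha as a synonym of EEF1A1, so the probesets are treated here as reporting 1 gene or close copies of it. The probeset Ssc.21418.1.S1_at had signals of 3019, 4381, 3588 and 2964 in Meishan gilts, against 1300, 1120, 918.3 and 928 in Yorkshire gilts. Every Meishan gilt stood far above the highest Yorkshire gilt. The mean signal of this EF1ALPHA probeset was 3.26-fold higher in Meishan endometrium (log2 difference 1.71, SE 0.21, 95% interval 1.22 to 2.19, limma adjusted p = 0.028). The second called probeset, Ssc.13961.2.A1_at, had 2683, 4452, 3494 and 4074 in Meishan gilts, against 1356, 1107, 1599 and 1534 in Yorkshire gilts. The groups again stood apart, with a 2.61-fold higher mean in Meishan endometrium (log2 difference 1.38, SE 0.22, 95% interval 0.87 to 1.90, limma adjusted p = 0.0608). The call of Ssc.13961.2.A1_at was lost when any single gilt other than Meishan gilt 1 was left out, with limma adjusted p of 0.104 to 0.153, while that of Ssc.21418.1.S1_at held without each gilt in turn.

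The brightest EF1ALPHA probeset, Ssc.13961.1.A1_at, was among the 5 strongest signals on every array. It read 37180, 51620, 45110 and 43270 in Meishan gilts, against 28660, 25320, 31130 and 27800 in Yorkshire gilts. All Meishan values lay above all Yorkshire values, but the difference was not called (log2 difference 0.64, SE 0.17, 1.56-fold, limma adjusted p = 0.17), and it was 0.00 after quantile normalization, which gives every array the same distribution. The array's 3 control probesets for this transcript had similar patterns. The 3' control read 33580, 47040, 39590 and 39540 in Meishan gilts, against 25910, 21990, 26960 and 24680 in Yorkshire gilts. The middle control read 34690, 40700, 42770 and 41430 in Meishan gilts, against 28280, 26300, 28770 and 28830 in Yorkshire gilts. The 5' control read 37850, 42950, 44780 and 36890 in Meishan gilts, against 29830, 26180, 28070 and 28140 in Yorkshire gilts. The breeds did not overlap at any of the 3 controls.

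At the 3', middle and 5' controls the Meishan means were 1.6-fold, 1.42-fold and 1.44-fold those of Yorkshire, each with the smallest p an exact permutation test of 4 against 4 can give (two-sided, p = 0.0286). After quantile normalization the log2 differences of the 3', middle and 5' controls were 0.06, -0.12 and -0.08, so that the middle and 5' controls changed sign. Within an array, the ratio of the 3' to the 5' control, a measure of how intact the RNA was and how far its labelling ran, was 0.887, 1.1, 0.884 and 1.07 in Meishan gilts, against 0.869, 0.84, 0.961 and 0.877 in Yorkshire gilts. These ratios overlapped between the breeds (log2 difference 0.15, exact permutation test, two-sided, p = 0.171).

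The other 7 probesets named EEF1A1 or EF1ALPHA did not follow the called ones. The suffix of Ssc.16125.1.S1_x_at marks that some of its probes may also bind other transcripts. This probeset had 12550, 8560, 14250 and 8695 in Meishan gilts, against 13830, 13240, 16300 and 7152 in Yorkshire gilts. The breeds overlapped across most of their range there, with a log2 difference of -0.17 (SE 0.31, limma adjusted p = 0.843). Ssc.3471.1.S1_at had 724.2, 669.9, 639.6 and 886.2 in Meishan gilts, against 956.7, 993.4, 934.4 and 776.6 in Yorkshire gilts. Meishan gilt 4 exceeded the lowest Yorkshire gilt, so the groups overlapped (log2 difference -0.33, limma adjusted p = 0.442). At Ssc.3471.2.S1_a_at the signals were 479.6, 599, 525.7 and 557 in Meishan gilts, against 631.3, 688.8, 487 and 554.3 in Yorkshire gilts (log2 difference -0.12, limma adjusted p = 0.802). At Ssc.21418.2.A1_at they were 195.6, 174.6, 201.9 and 126.5 in Meishan gilts, against 236.7, 181.8, 148.7 and 253.3 in Yorkshire gilts (log2 difference -0.22, limma adjusted p = 0.72). Neither of these EF1ALPHA probesets separated the breeds.

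The annotation names 3 probesets EEF1A1. Ssc.11666.1.S1_a_at read 327.9, 246.6, 298.6 and 208.8 in Meishan gilts, against 235, 232.4, 209.2 and 146.6 in Yorkshire gilts (log2 difference 0.40, limma adjusted p = 0.477), and the study's list gives it the name C9orf142. Ssc.11666.1.S1_s_at read 961.3, 695.8, 657.9 and 556.8 in Meishan gilts, against 619.2, 651, 383.1 and 762.6 in Yorkshire gilts (log2 difference 0.26, limma adjusted p = 0.699). Ssc.31059.1.S1_at read 250.7, 228.4, 239.4 and 199.5 in Meishan gilts, against 284.5, 230, 207.5 and 206.8 in Yorkshire gilts, with a log2 difference of -0.01 whose sign was not kept under other scalings. The breeds overlapped at each of the 3.

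As a share of the brightest EF1ALPHA probeset in the same gilt, Ssc.21418.1.S1_at stood at 8.12, 8.49, 7.95 and 6.85% in Meishan gilts, against 4.54, 4.42, 2.95 and 3.34% in Yorkshire gilts. The share of Ssc.13961.2.A1_at was 7.22, 8.63, 7.75 and 9.42% in Meishan gilts, against 4.73, 4.37, 5.14 and 5.52% in Yorkshire gilts. The share of Ssc.3471.1.S1_at was 1.95, 1.3, 1.42 and 2.05% in Meishan gilts, against 3.34, 3.92, 3.0 and 2.79% in Yorkshire gilts. The breeds did not overlap in any of these 3 shares, which were chosen after the values were seen and are given as descriptions. The probesets named EF1ALPHA therefore had unequal differences between the breeds within the same arrays. The plot of EEF1A1 probesets by gilt sets all 13 side by side.

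**Figure D2:**
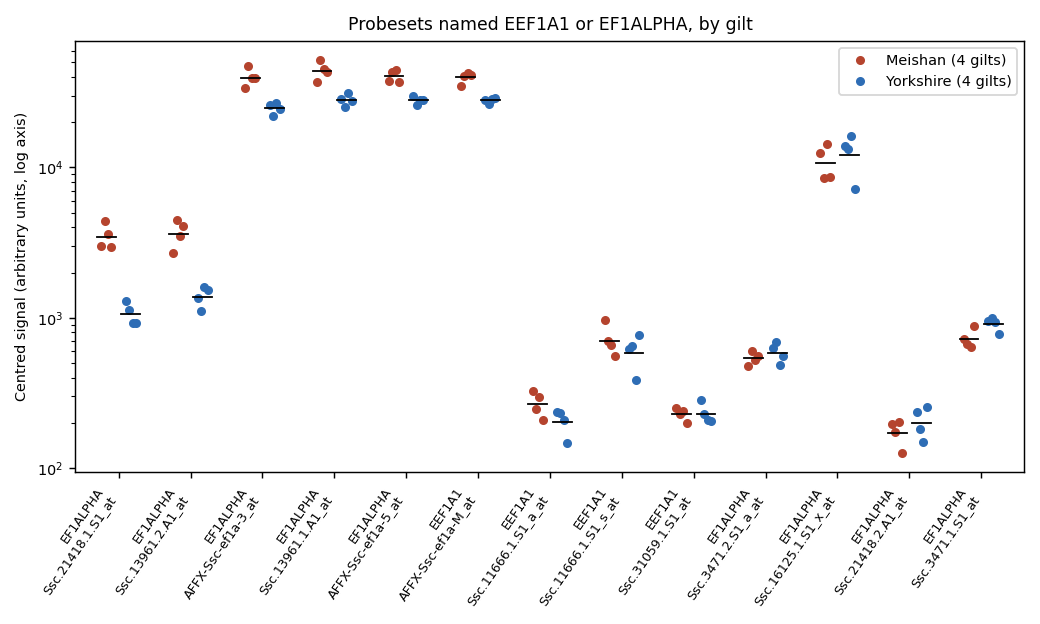
Signal of each gilt (points, log axis) at the 13 probesets for EEF1A1 or EF1ALPHA, with Meishan gilts left of Yorkshire gilts and bars at the geometric mean of each breed. At the called probesets the Meishan gilts sit between 2964 and 4381 (Ssc.21418.1.S1_at) and between 2683 and 4452 (Ssc.13961.2.A1_at), above all Yorkshire gilts.

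The subunits of the eEF1B complex, which returns eEF1A to its GTP-bound form, had small differences. EEF1B2, the catalytic exchange subunit, had signals of 20660, 20070, 19970 and 18990 at Ssc.6663.1.A1_at in Meishan gilts, against 16740, 15640, 16450 and 15030 in Yorkshire gilts. All Meishan gilts were above all Yorkshire gilts and each breed was tight, yet the difference was not called (log2 difference 0.32, SE 0.15, 1.25-fold, limma adjusted p = 0.367). EEF1G, the structural gamma subunit, had 13210, 12080, 14250 and 14590 in Meishan gilts, against 11440, 10410, 11530 and 10500 in Yorkshire gilts. These groups stood apart as well, without a call (log2 difference 0.30, SE 0.16, 1.23-fold, limma adjusted p = 0.418). After quantile normalization the log2 differences were 0.06 for EEF1B2 and 0.19 for EEF1G. EEF1D, the second exchange subunit, had 4448, 4387, 4648 and 4984 in Meishan gilts, against 4500, 3998, 4801 and 4667 in Yorkshire gilts. Its breeds overlapped fully, with a log2 difference of 0.04 and a 95% interval of -0.32 to 0.40.

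EIF5A, which carries the unusual amino acid hypusine and helps the ribosome through difficult stretches of peptide, had probesets that pointed opposite ways. Ssc.11669.3.A1_at read 4717, 4748, 4174 and 4374 in Meishan gilts, against 3245, 2462, 3666 and 4000 in Yorkshire gilts. No Yorkshire gilt reached the lowest Meishan gilt (log2 difference 0.45, SE 0.20, limma adjusted p = 0.343). Ssc.11669.1.S1_at read 1230, 579.4, 595.4 and 831.3 in Meishan gilts, against 1512, 1093, 994.1 and 1343 in Yorkshire gilts. Only Meishan gilt 1 overlapped the Yorkshire range there (log2 difference -0.66, SE 0.29, limma adjusted p = 0.339). DHPS, the enzyme that starts hypusine formation on eIF5A, read 380.6, 380.2, 328.7 and 459 in Meishan gilts, against 234.5, 251.2, 288.8 and 305.7 in Yorkshire gilts. Its breeds did not overlap and the difference was not called (log2 difference 0.52, limma adjusted p = 0.252). EEF1AKMT1, which methylates eEF1A, read 955.9, 1027, 1352 and 1127 at its brighter probeset in Meishan gilts, against 1399, 1669, 1852 and 1029 in Yorkshire gilts. Yorkshire gilt 4 lay within the Meishan range and the other 3 above it (log2 difference -0.39, limma adjusted p = 0.48).

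The elongation group of 17 probesets takes in EEF1E1 by its symbol alone (log2 differences -0.35 and 0.33). Across the 17 probesets, 10 lay toward Meishan and 7 toward Yorkshire, with a median of 0.26. The Meishan gilts exceeded all Yorkshire gilts at 6 of them, and the reverse occurred at 0. Over all probesets, 5.01% and 5.09% separated in these directions. Of the 6, 3 were EF1ALPHA probesets. EEF1B2, EEF1G and the brightest EF1ALPHA probeset had mean signals of at least 8192, where 80.5% of all probesets lay toward Meishan. With the EEF1A1 and EF1ALPHA probesets set aside, the remaining 68 members had 35 log2 differences above 0 and 33 below, with 0 calls. At an unadjusted p below 0.05, 1 of the 68 lay toward Meishan (1.47%, against 7.79% of all probesets). Toward Yorkshire lay 6 (8.82%, against 6.96% of all). Both calls of the whole set were thus at probesets named EF1ALPHA, which may report 1 gene or close copies of it.

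The eIF3 complex, a scaffold of many subunits around the small ribosomal subunit, had 13 tested probesets with no call, 7 toward Meishan and 6 toward Yorkshire. EIF3D, a subunit able to bind the cap itself, had 1686, 1189, 1399 and 1560 at Ssc.6735.1.A1_at in Meishan gilts, against 2116, 2566, 1936 and 2189 in Yorkshire gilts. All Yorkshire gilts were above all Meishan gilts (log2 difference -0.60, SE 0.19, 1.51-fold toward Yorkshire, limma adjusted p = 0.206). Its dim probeset Ssc.11296.1.A1_at had 40.1, 51.88, 58.37 and 29.68 in Meishan gilts, against 72.43, 184.8, 127 and 89.04 in Yorkshire gilts. The groups were again separate, with the Meishan signals near background (log2 difference -1.35, SE 0.35, limma adjusted p = 0.155). Both EIF3D probesets thus lay toward Yorkshire without passing the threshold.

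EIF3M was measured by probesets of opposite direction. Ssc.3401.1.S1_at read 583.2, 519.9, 594 and 475 in Meishan gilts, against 1031, 626, 730.9 and 771.8 in Yorkshire gilts. These did not overlap (log2 difference -0.52, SE 0.20, limma adjusted p = 0.292), and the study's list gives this probeset the name of a different gene, SLC20A2. Ssc.11102.2.S1_at read 4913, 3619, 3803 and 3456 in Meishan gilts, against 2820, 3048, 3461 and 3768 in Yorkshire gilts. Here the breeds overlapped, with a log2 difference of 0.26 (limma adjusted p = 0.565).

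EIF3E and EIF3H, further subunits of the complex, were bright and had differences above 0. EIF3H read 8763, 8192, 9311 and 8026 in Meishan gilts, against 7437, 6013, 7620 and 6468 in Yorkshire gilts. EIF3E read 6808, 7966, 7034 and 7859 in Meishan gilts, against 6263, 5602, 6690 and 6097 in Yorkshire gilts. Both separated the breeds by less than the test could call (log2 difference 0.32 and limma adjusted p = 0.412 for EIF3H, 0.27 and 0.479 for EIF3E). The other 7 eIF3 probesets also had overlapping breeds.

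**Figure D3:**
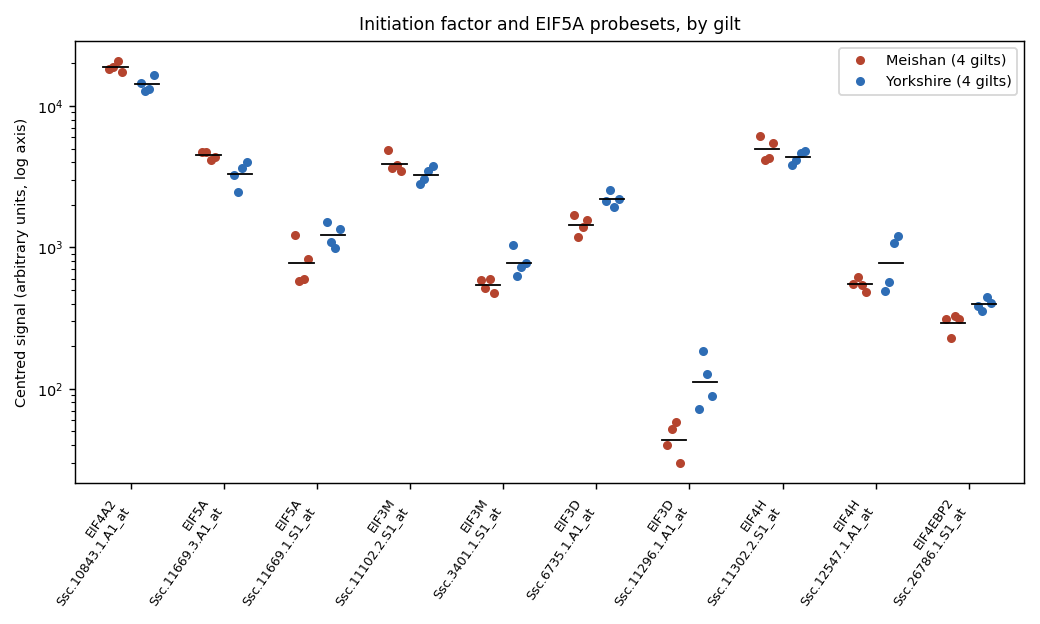
Signal of each gilt (points, log axis) at 10 initiation factor and EIF5A probesets, Meishan left of Yorkshire, with bars at the geometric mean of each breed. Meishan gilts lie between 1189 and 1686 for EIF3D Ssc.6735.1.A1_at, below the Yorkshire gilts at 1936 to 2566, whereas for EIF4A2 they lie between 17440 and 20870, above the Yorkshire gilts at 12800 to 16570.

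The cap complex group, with its cofactors and the relatives EIF4E2 and EIF4G2, gave 14 probesets. Of these, 8 lay toward Meishan and 6 toward Yorkshire, with a median of 0.10 and 0 calls. EIF4A2, a helicase that unwinds the 5' end of mRNA, had 18230, 18830, 20870 and 17440 in Meishan gilts, against 14660, 12800, 13250 and 16570 in Yorkshire gilts. Every Meishan gilt exceeded every Yorkshire gilt (log2 difference 0.40, SE 0.17, 1.32-fold, limma adjusted p = 0.323), and the log2 difference was 0.18 after quantile normalization. The paralog EIF4A1 had 3684, 1397, 1709 and 2939 in Meishan gilts, against 2790, 2244, 2412 and 3508 in Yorkshire gilts. Its Meishan gilts varied 2.64-fold and enclosed the Yorkshire range.

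EIF4G2, a relative of eIF4G that lacks the eIF4E-binding region, read 13430, 11080, 10530 and 11840 in Meishan gilts, against 10080, 10360, 10510 and 10370 in Yorkshire gilts. The lowest Meishan gilt was just above the highest Yorkshire gilt, so the groups were apart by a narrow margin (log2 difference 0.18, limma adjusted p = 0.651). EIF4H, a cofactor of the helicase, had log2 differences of opposite sign at its 2 probesets. Its Ssc.12547.1.A1_at had 554.7, 615.8, 541.3 and 482.2 in Meishan gilts, against 488.3, 569.5, 1080 and 1209 in Yorkshire gilts. Yorkshire gilts 3 and 4 were high and the other 2 lay inside the Meishan range (log2 difference -0.51, limma adjusted p = 0.508). Its Ssc.11302.2.S1_at had 6088, 4171, 4290 and 5448 in Meishan gilts, against 3816, 4165, 4654 and 4832 in Yorkshire gilts. Meishan gilts 1 and 4 were high and the rest overlapped (log2 difference 0.18).

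Of 7 probesets for 4E-BP genes, 1 lay toward Meishan and 6 toward Yorkshire, with a median log2 difference of -0.21 and 0 calls. At an unadjusted p below 0.05, 2 lay toward Yorkshire (28.6%, against 6.96% of all probesets) and 0 toward Meishan. The 6 toward Yorkshire had mean signals between 256 and 4096. Of all probesets, 40.6% lay toward Meishan at signals of 256 to 1024, and 37.7% at 1024 to 4096. EIF4EBP2, a 4E-BP that sequesters eIF4E until mTOR phosphorylates it, had 309.1, 227.3, 324.7 and 312.9 at Ssc.26786.1.S1_at in Meishan gilts, against 386.3, 354.6, 446.5 and 402.2 in Yorkshire gilts. All Yorkshire gilts were higher than all Meishan gilts (log2 difference -0.45, SE 0.19, limma adjusted p = 0.322), though the study's list assigns this probeset to C1S. Among the 5 EIF4EBP2 probesets, 4 lay toward Yorkshire and 1 toward Meishan. A probeset for which the annotation lists EIF4EBP3 together with ANKHD1, Ssc.20774.1.S1_at, had 769.4, 616.7, 863.4 and 633.6 in Meishan gilts, against 997.4, 948.9, 1003 and 1000 in Yorkshire gilts. The Yorkshire gilts were almost identical and above every Meishan gilt (log2 difference -0.47, SE 0.18, limma adjusted p = 0.276), and the probeset cannot be assigned to 1 of its 2 listed genes.

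Start codon factors gave 9 probesets, 6 toward Meishan and 3 toward Yorkshire, 0 at an unadjusted p below 0.05 and with a median of 0.04. EIF1, the guardian of start codon fidelity, had 15000, 13570, 14290 and 13390 at its brighter probeset in Meishan gilts, against 14010, 15100, 14730 and 11340 in Yorkshire gilts. The breeds overlapped completely. EIF5B, which joins the ribosomal subunits, had the lowest p of the group at its dim probeset Ssc.9300.2.A1_at, with 80.66, 52.54, 114.3 and 65.75 in Meishan gilts, against 49.84, 55.46, 34.44 and 66.05 in Yorkshire gilts. The gilts overlapped there too (log2 difference 0.59, SE 0.30, limma adjusted p = 0.415), and a further EIF5B probeset had a log2 difference of -0.41.

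EIF1AX, the X-linked gene of the scanning factor eIF1A, had annotated probesets with log2 differences of 0.09 and -0.01, and the sign of the second changed under other scalings. Its bright probeset Ssc.4708.1.A1_at read 3170, 2472, 2007 and 2149 in Meishan gilts, against 2530, 1519, 2861 and 3148 in Yorkshire gilts. Its probeset Ssc.12970.1.S1_at read 1640, 1244, 1292 and 1383 in Meishan gilts, against 1218, 1146, 1432 and 1417 in Yorkshire gilts. Neither separated the breeds. Signals of EIF1AY were near background in both breeds, with means of 10.84 in Meishan and 3.154 in Yorkshire, and the upper end of the members' range, 1.78, came from that probeset.

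The 12 probesets for eIF2, its exchange factor eIF2B and alternative initiator tRNA carriers had log2 differences between -0.38 and 0.31, with 6 on each side of 0 and 0 at an unadjusted p below 0.05. EIF2S1, the subunit phosphorylated under stress, had 3047, 1632, 1678 and 1873 in Meishan gilts, against 1822, 1648, 1769 and 2325 in Yorkshire gilts. Meishan gilt 1 stood highest of all 8 and the others overlapped. EIF2B3, a subunit of the exchange factor, had the lowest p of these 12 probesets and read 425.8, 256.6, 254.3 and 470.1 in Meishan gilts, against 278, 223.2, 274.9 and 325.8 in Yorkshire gilts. Meishan gilts 1 and 4 were high and the rest overlapped (log2 difference 0.31, limma adjusted p = 0.637). EIF2AK2, the interferon-inducible kinase of eIF2 known as PKR, had 1336, 2003, 1026 and 985.4 in Meishan gilts, against 1426, 2099, 818.2 and 2991 in Yorkshire gilts. Yorkshire gilt 4 was the highest and Yorkshire gilt 3 the lowest, so the spread within Yorkshire exceeded the difference between the breeds (log2 difference -0.36, SE 0.43, limma adjusted p = 0.739).

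PABPC1, which binds the poly(A) tail and contacts eIF4G, had 10850, 11660, 11550 and 11440 in Meishan gilts, against 9860, 9847, 12530 and 8639 in Yorkshire gilts. Yorkshire gilt 3 exceeded all Meishan gilts and the other 3 lay below them (log2 difference 0.17, 95% interval -0.23 to 0.57). EIF6, which keeps free large subunits from joining small ones, read 1862, 1090, 1373 and 1435 in Meishan gilts, against 1648, 1407, 1471 and 1749 in Yorkshire gilts. Meishan gilts were both highest and lowest (log2 difference -0.14, 95% interval -0.62 to 0.33). EIF4A3, a helicase of the exon junction complex in spite of its name, read 3139, 2112, 1885 and 2740 in Meishan gilts, against 1729, 1659, 1971 and 2542 in Yorkshire gilts. The breeds overlapped (log2 difference 0.31, limma adjusted p = 0.585).

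The 11 probesets named by the study's list alone carry symbols that the array annotation used here does not give them. Because that list was drawn from these arrays, their separation is part of how they were chosen. EIF2AK4, the kinase GCN2 that senses uncharged tRNA and phosphorylates eIF2, had 583.9, 518.1, 636.8 and 498.1 in Meishan gilts, against 1119, 1206, 987.7 and 972.2 in Yorkshire gilts. Its log2 difference was -0.94, or 1.92-fold toward Yorkshire, with no overlap. EEF1A2, the paralog of EEF1A1 best known from muscle and nerve, had 223.1, 193.6, 227 and 169.2 in Meishan gilts, against 133.1, 123.1, 124.9 and 116.9 in Yorkshire gilts. Its log2 difference was 0.70, or 1.62-fold toward Meishan, again with no overlap.

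EEF2, the translocase, was represented by Ssc.965.1.S1_at with 18190, 18550, 20020 and 21980 in Meishan gilts, against 16070, 16510, 19630 and 15900 in Yorkshire gilts. Yorkshire gilt 3 lay inside the Meishan range and the log2 difference was 0.21. A further probeset of EIF2B1, a subunit of the exchange factor, had 34.25, 114.3, 26.47 and 74.88 in Meishan gilts, against 206.8, 206.9, 361.8 and 139.6 in Yorkshire gilts. Its log2 difference was -2.03, with Meishan signals near background, and the annotated EIF2B1 probesets had -0.21 and -0.03. EIF3F, an eIF3 subunit, had 117.7, 41.11, 7.188 and 8.028 in Meishan gilts, against 137, 173, 171.8 and 323.5 in Yorkshire gilts. The breeds did not overlap and Meishan gilts 3 and 4 were at background.

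A dim second EEF1B2 probeset, Ssc.6664.1.A1_at, had 84.38, 36.6, 84.85 and 41.3 in Meishan gilts, against 99.38, 88.68, 332.6 and 348.9 in Yorkshire gilts. Its direction, with a log2 difference of -1.64, was opposite to that of the bright EEF1B2 probeset. EIF2C3 is an older name of an Argonaute protein of small RNA silencing and not an initiation factor. Its probeset Ssc.24035.1.S1_at read 358.8, 320.6, 259.6 and 342.7 in Meishan gilts, against 410.5, 427.3, 698.2 and 505 in Yorkshire gilts. Its 2 probesets had log2 differences of -0.65 and -0.56, with every Yorkshire gilt above every Meishan gilt. A further probeset of EIF1AX, Ssc.26800.1.S1_at, read 755.1, 836.5, 1049 and 906.4 in Meishan gilts, against 600, 449.1, 758.7 and 625.8 in Yorkshire gilts. Yorkshire gilt 3 just exceeded the lowest Meishan gilt, and the log2 difference was 0.56. The log2 difference was 0.51 for the eIF3 subunit EIF3C and -0.44 for EIF2AK1, the heme-regulated kinase of eIF2. Of the 11 probesets, 4 lay toward Meishan and 7 toward Yorkshire, as the plot of these probesets shows.

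**Figure D4:**
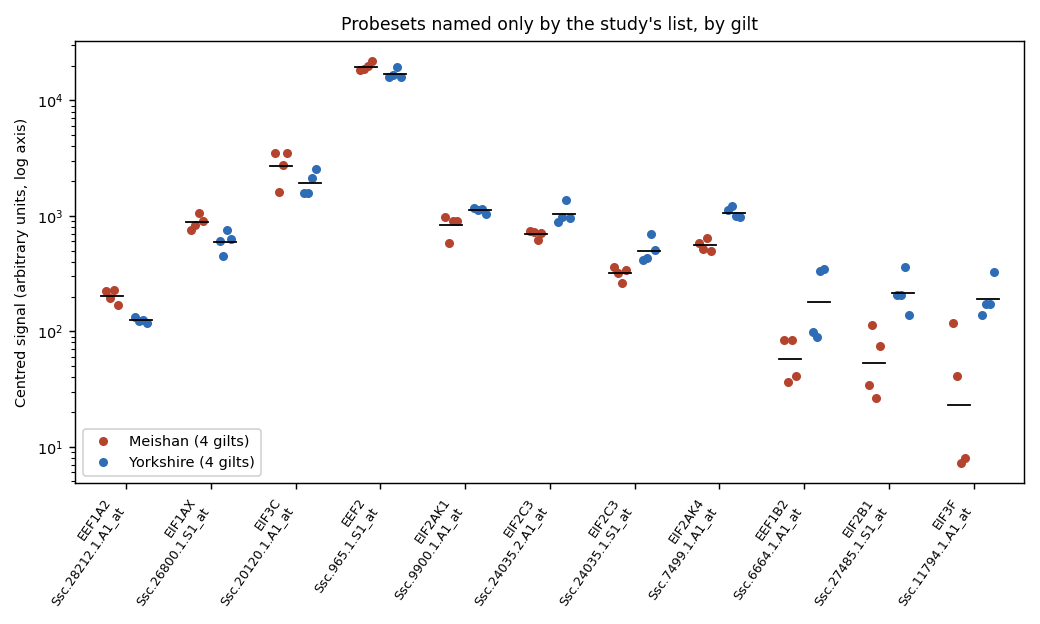
Signal of each gilt (points, log axis) at the 11 probesets named by the study's list alone, Meishan left of Yorkshire, with bars at the geometric mean of each breed. EIF2AK4 lies between 498.1 and 636.8 in Meishan gilts and between 972.2 and 1206 in Yorkshire gilts, and EIF3F falls to 7.188 in the lowest Meishan gilt.

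The direction of a member varied with how bright its probeset was, and so did that of all probesets. Of the 8 members with a mean signal of at least 8192, 7 lay toward Meishan, with a median log2 difference of 0.24. Of all 272 probesets as bright, 80.5% lay toward Meishan, with a median of 0.26. After quantile normalization these medians were 0.06 for the members and 0.02 for all probesets of that band. Of the 23 members between 256 and 1024, 6 lay toward Meishan with a median of -0.19, where 40.6% of all 6608 probesets in that band did so with a median of -0.08. EEF1B2, EEF1G, EIF4A2 and the brightest EF1ALPHA probeset stand in the brightest band, whereas both called probesets lie at mean signals between 1024 and 4096, where 37.7% of all probesets lay toward Meishan. At the called probesets the log2 differences after quantile normalization were 1.81 for Ssc.21418.1.S1_at and 1.46 for Ssc.13961.2.A1_at.

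**Figure D5:**
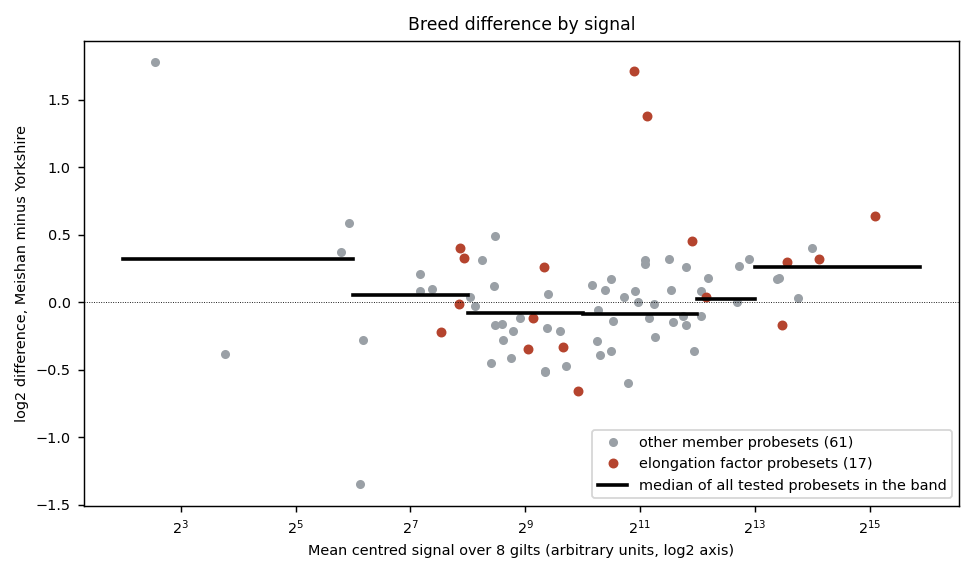
Log2 difference, Meishan minus Yorkshire, of the 17 probesets in the elongation group, EEF1E1 included (red), and the other 61 tested members (grey). These are set against their mean signal over the 8 gilts (log axis). Black lines mark the median of all tested probesets in each band of signal, which is 0.26 at 8192 or more, where the members' median is 0.24.

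Taking the brightest probeset of each gene left 43 genes, of which 27 lay toward Meishan and 16 toward Yorkshire, with a median of 0.08 and 0 calls. Among 8 genes whose mRNAs are known in mammals to carry the terminal oligopyrimidine tract (EEF1A1, EEF1B2, EEF1D, EEF1G, EIF3E, EIF3H, EIF4B and PABPC1), 7 lay toward Meishan, with a median of 0.28 and a range of -0.17 to 0.64. For the other 35 genes the median was 0.04, with 20 toward Meishan and 15 toward Yorkshire. Over all 18 tested probesets of the 8 genes with the tract, 11 lay toward Meishan and 7 toward Yorkshire, with a median of 0.22. EEF2 and EIF3F, also counted as such genes, were named by the study's list alone and are left out here. The mRNAs of the 8 genes are also bright, and their difference from the rest was not tested.

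Over the 74 members at a mean signal of at least 64, the median SD between gilts on the log2 scale was 0.246 in Meishan and 0.248 in Yorkshire, against 0.333 in Meishan and 0.306 in Yorkshire over all 16718 probesets past the same level. The difference in spread was not tested. Meishan gilt 1 had the highest signal of its breed at 37 of the 78 members (47.4%), where it did so at 31.0% of all probesets. EIF3I read 3776, 1595, 1957 and 2799 in Meishan gilts, against 1693, 1584, 2031 and 2790 in Yorkshire gilts. EIF4G1, the scaffold of the cap complex, read 2501, 1078, 1137 and 1802 at Ssc.20606.1.S1_at in Meishan gilts, against 1360, 1192, 1002 and 2138 in Yorkshire gilts. In both genes Meishan gilts 1 and 4 and Yorkshire gilt 4 were high, and the breeds overlapped.

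Other genes of the translation pathway, 37 measured of 66 listed and each taken at its brightest probeset, gave 0 calls, 21 differences toward Meishan and 16 toward Yorkshire, with a median of 0.10. At an unadjusted p below 0.05, 3 lay toward Meishan (8.11%, against 7.79% of all probesets) and 2 toward Yorkshire (5.41%, against 6.96% of all). TPT1, which binds eEF1A and has a terminal oligopyrimidine mRNA, read 27540, 36290, 32370 and 27730 in Meishan gilts, against 21800, 18690, 23410 and 20700 in Yorkshire gilts. All Meishan gilts were higher (log2 difference 0.55, limma adjusted p = 0.217). MKNK1, the kinase that phosphorylates eIF4E, read 430.3, 289.2, 326.6 and 297.6 in Meishan gilts, against 539, 738.2, 814.9 and 473.1 in Yorkshire gilts. All Yorkshire gilts were higher (log2 difference -0.92, SE 0.24, 1.89-fold toward Yorkshire, limma adjusted p = 0.163), which did not reach the threshold. The 15 tRNA synthetases measured had 10 differences toward Meishan and 5 toward Yorkshire, 0 of them at an unadjusted p below 0.05.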

How the data were processed

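Signals were those the authors deposited: intensity values on a linear scale, made per the labels with GCOS 1.2 and scaled by the authors to a common trimmed mean (500.1 on each array after leaving out 2% at each end). Array medians lay between 168.5 and 194.7 in Meishan gilts and between 171.1 and 187.3 in Yorkshire gilts. Detection calls were not used here, and 4 arrays a breed limit the precision. From the authors' list of differing probesets only the names were used, and 21 of the 78 tested members stand in it.

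The 124 control probesets were removed, log2 signals were centred on each array's median over the remaining 23999, and breeds were compared with limma 3.58.1 in R 4.3.3 (empirical Bayes, prior degrees of freedom 2.09), with Benjamini-Hochberg adjustment over all 23999. The authors fitted a mixed linear model to natural-log signals and called at the same threshold on q-values, so the centring, the moderation and the adjustment differ here. Breed means are geometric. No fold is given where a breed mean was below 64. Of the 78 tested members, 6 have several gene symbols and are counted without being ascribed to 1 gene. Control probesets were compared by an exact permutation test over 70 assignments, two-sided. Genes were named from the platform annotation and RefSeq (Sscrofa11.1). Sequences were not used here. Gilts with the same number are separate animals and were not treated as pairs (correlation of same-numbered deviations between -0.06 and 0.09). The labels do not say what the numbers mean. The labels do not give array batches.

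Every gilt's values are given for members called or at an unadjusted p below 0.05, for EEF1 and EEF2 genes except EEF1E1, for the lowest p of each role, for the 6 largest differences among probesets named by the study's list alone, and for genes whose probesets opposed each other with a log2 difference of at least 0.5 in size. EIF1, EIF2S1, EIF3E, EIF3H, EIF3I, EIF4A1, EIF4G1, EIF4G2, DHPS, TPT1 and MKNK1 were named after their values were seen. The members and gene lists were chosen with earlier results of these data known. The fit was tested on simulated data. Alternatives covered the scaling, filter, floor, moderation, weights, threshold, replicate block and each gilt left out.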

Additional observations from a re-analysis of the deposited data

Results flagged for a closer look

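In 88 groups of 4 gilts, from 44 named probesets in each breed, 2 held a gilt far from the other 3, and chance alone marks about 1 in 20 groups this way (Dixon's 95% criterion). At EIF4EBP2 Ssc.26786.1.S1_at, Meishan gilt 2 had a signal of 227.3 beside 309.1 to 324.7 in the other Meishan gilts, a gap of 0.862 of the range on the log2 scale. At Ssc.20774.1.S1_at, listed as EIF4EBP3 and ANKHD1, Yorkshire gilt 2 had 948.9 beside 997.4 to 1003 in the other Yorkshire gilts, a gap of 0.906 of a very narrow range.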

How the results depend on the processing

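The 2 called members stood beside 218 calls over all probesets. The member count was also 2 without further scaling and with quantile or cyclic loess normalization (212, 239 and 215 calls over all probesets), and with an intensity trend, array weights or Storey q-values (626, 497 and 532 over all). It was 4 with a mean signal of at least 64 (668 over all), 5 with signals below 32 raised to 32 (863), 3 without moderation (227), 4 with the methods' linear model (499) and 1 at an adjusted p below 0.05 (60). It was 0 once gilt number entered as a replicate block, a limma fit that called 0 of all probesets and left 3 members toward Meishan and 3 toward Yorkshire at an unadjusted p below 0.05. The brightest EF1ALPHA probeset was called with the filter (limma adjusted p = 0.0985) and the floor (0.0591), EEF1B2 with the floor (0.0503), without moderation (0.074) and with the methods' model (0.0664), and EIF3D at a probeset each with the filter (0.0783) and the floor (0.0932). Leaving out 1 gilt gave 1 to 2 called members and 72 to 205 calls over all probesets. Members at an unadjusted p below 0.05 toward Meishan numbered 4, against 8 without further scaling, 10 with the floor of 32, 10 without moderation and 12 with the methods' linear model, and 3 to 6 with a gilt left out. Those toward Yorkshire numbered 6, against 2 with quantile and 2 with cyclic loess normalization, and 2 to 7 with a gilt left out. The cause of these shifts was not tested. The middle to 5' control ratio had a log2 difference of -0.03, where the 3' to 5' ratio had 0.15. Of 659 values of 33 named members under 20 alternatives, 625 kept direction and call. EEF1A1 Ssc.31059.1.S1_at (-0.01) turned to 0.05, 0.01 and 0.02 on the signals as deposited and under quantile and cyclic loess scaling, 0.05 with the methods' model, and -0.06 to 0.09 with a gilt left out. EIF1AX Ssc.4708.1.A1_at (-0.01) turned to 0.05, 0.09 and 0.06 under the same scalings, 0.00 with weights, 0.05 with the methods' model, and -0.23 to 0.12 with a gilt left out. EEF1D (0.04) ran from -0.01, without Yorkshire gilt 2, to 0.07 with a gilt left out. In an alternative chosen after seeing the data, quantile normalization gave the middle and 5' controls -0.12 and -0.08. With 4 gilts a breed and 1 array each, small differences in bright transcripts moved with the scaling. The labels do not say whether gilts with the same number shared a day of sampling or of hybridization.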
